A study of Mus musculus with 12 samples.

Results

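STAT proteins carry signals from cytokine receptors to the nucleus. A receptor-bound Janus kinase (JAK) phosphorylates them, they pair up, and the pairs bind DNA and switch on target genes. In T cells STAT2 serves type I interferon receptors, STAT3 serves IL-6, IL-10 and IL-21 receptors, STAT5A and STAT5B serve IL-2, IL-7 and IL-15 receptors, and STAT6 serves the IL-4 receptor. The 5 genes Stat2, Stat3, Stat5a, Stat5b and Stat6 were taken by symbol from a table of 55487 mouse gene identifiers; all 5 matched and all 5 passed the filter on low counts.

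RNA was sequenced in bulk from CD8+ T cells of C57BL/6 mouse splenocytes, in 12 libraries of 4 groups with 3 libraries each. The groups were cells given IL-2, IL-2 and 80%TCM, IL-12, or IL-12 and 80%TCM. The labels do not spell out TCM, and the series title speaks of tumor-like conditions. They give no age, dose or culture time. Nor do they state that replicate libraries were from different mice or cultures, so that the p-values take in just the scatter among 3 libraries, which may be technical. No group lacked a cytokine, so each cytokine was compared only with the other.

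Libraries held 19.5 to 26 counts in units of 1e+06, except for IL-12 replicates 1 and 2 with 49.6 and 42.3 in that unit. The labelled cell type was checked against its markers: Cd8a lay between 813 and 1370 CPM, while Cd4 reached at most 4.55 CPM. CPM are counts per 1e+06 on library sizes scaled by TMM. The extraction text of the labels names livers from mice given bortezomib, a proteasome inhibitor, or vehicle, while no group label names that drug. The liver gene Alb stood at 0.0969 CPM at most; this bears on the tissue and not on the drug. The replicates numbered 3 differed from the rest in both IL-2 groups: 3.35% without TCM and 5.40% with TCM of 8871 well expressed genes lay at least 1.5-fold from the other libraries of their group, against 0.0113% to 1.43% in the other 10 libraries. For the STAT genes, each result whose call changes without them is given both ways. The level of a messenger RNA in bulk cells cannot tell fewer cells of a type apart from less RNA per cell.

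The 5 genes lie in 2 places of the mouse genome. Stat2 and Stat6 are on chromosome 10. Stat5b, Stat5a and Stat3 follow each other on chromosome 11 in the RefSeq order of tested genes. Of these, Stat5a is on the plus strand and both others are on the minus strand. Promoter sequences were taken from RefSeq (build GRCm38.p6), where all 5 genes matched, with 7 windows of 300 bases. The Stat2 promoter is shown because Stat2 is itself known as an interferon-induced gene and was the one member called lower with IL-12 than with IL-2 without TCM. Its 250 bases before the start (chr10:128270248-128270497, plus strand) hold 1 match to the core of an interferon-stimulated response element (ISRE), read on the minus strand and set in capitals, which begins at position -222 from the start.
Stat2: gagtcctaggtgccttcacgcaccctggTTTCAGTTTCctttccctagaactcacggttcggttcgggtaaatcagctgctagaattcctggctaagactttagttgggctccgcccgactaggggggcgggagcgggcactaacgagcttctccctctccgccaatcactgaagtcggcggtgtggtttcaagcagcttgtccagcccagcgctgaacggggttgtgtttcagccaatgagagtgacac
None of the other 6 member windows holds this motif, which is present in 3.44% of 32851 promoter windows of the same length, searched on both strands. The STAT motif TTCNNNGAA was found in none of the 7 windows and in 8.30% of all windows. The form whose spacer has 1 N more occurs once in the Stat2 window, from position -210 and outside the ISRE match, and in 6.95% of all windows.

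Stat5a and Stat5b are neighbouring copies of one gene, and each has 2 promoter windows. The longest stretch that a Stat5a and a Stat5b window have in common is 16 bases, in capitals in the 30-base excerpts below, from the Stat5a window nearer the gene body (chr11:100860445-100860474, plus strand) and from the downstream Stat5b window (chr11:100822571-100822600, minus strand).
Stat5a: tttgaggAGGAAATCGCTGCTCTctgctcc
Stat5b: ttttagaAGGAAATCGCTGCTCTttgcttc
The other Stat5b window is at 82.7% G and C, above 99.6% of all promoter windows, against 57.7% and 67.7% in the Stat5a windows and a median of 52.7%. The deposited counts are per gene and do not tell which start was used.

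Stat5a, one of the 2 STAT5 genes, set IL-12 and IL-2 cells apart most clearly. It stood at 126, 117 and 105 CPM with IL-2 and at 109, 117 and 112 CPM with IL-2 and TCM. With IL-12 it stood at 218, 219 and 215 CPM, and with IL-12 and TCM at 233, 227 and 223 CPM. All 6 IL-12 libraries lay above all 6 IL-2 libraries. Without TCM the means were 217 ± 2.04 CPM with IL-12 and 116 ± 10.5 CPM with IL-2 (SD, n = 3), a log2 fold change of 0.91 ± 0.061 (standard error), or 1.88-fold (edgeR quasi-likelihood test, Benjamini-Hochberg adjusted p = 8.3e-08). With TCM the gene was 2.02-fold higher (log2 fold change 1.02 ± 0.061, adjusted p = 2.3e-08). All adjusted p-values below come from this test over 15897 genes unless another is named, with a threshold of 0.05.

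Stat5b, the other STAT5 gene, rose with IL-12 as well, by less. It was at 234, 234 and 215 CPM with IL-2, at 235, 236 and 238 CPM with IL-2 and TCM, at 313, 313 and 321 CPM with IL-12, and at 367, 350 and 358 CPM with IL-12 and TCM. No IL-12 library overlapped an IL-2 library. The rise was 1.39-fold without TCM (log2 fold change 0.47 ± 0.046, adjusted p = 3.3e-06) and 1.52-fold with TCM (0.60 ± 0.046, adjusted p = 2.8e-07).

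The share of Stat5a in the counts of both STAT5 genes was higher in every IL-12 library than in every IL-2 library. Stat5a gave 34.9%, 33.3% and 32.7% of the summed Stat5a and Stat5b counts in the IL-2 libraries, and 31.7%, 33.1% and 32.0% with TCM. It gave 41.0%, 41.2% and 40.1% in the IL-12 libraries, and 38.8%, 39.3% and 38.4% with TCM. These shares do not depend on how libraries are scaled. The group means were 33.6 ± 1.2% and 32.3 ± 0.76% in IL-2 without and with TCM, and 40.8 ± 0.57% and 38.9 ± 0.46% in IL-12 (SD, n = 3). IL-12 and IL-2 libraries did not overlap, and within IL-12 those with TCM lay below those without, while within IL-2 the ranges overlapped. The share is given as a description, with no test. Each library's share rests on 7117 to 25081 counts, and its 95% exact binomial interval, which covers counting error only, was for example 33.9 to 36.0% for replicate 1 of IL-2 and 40.4 to 41.7% for replicate 1 of IL-12.

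**Figure D1:**
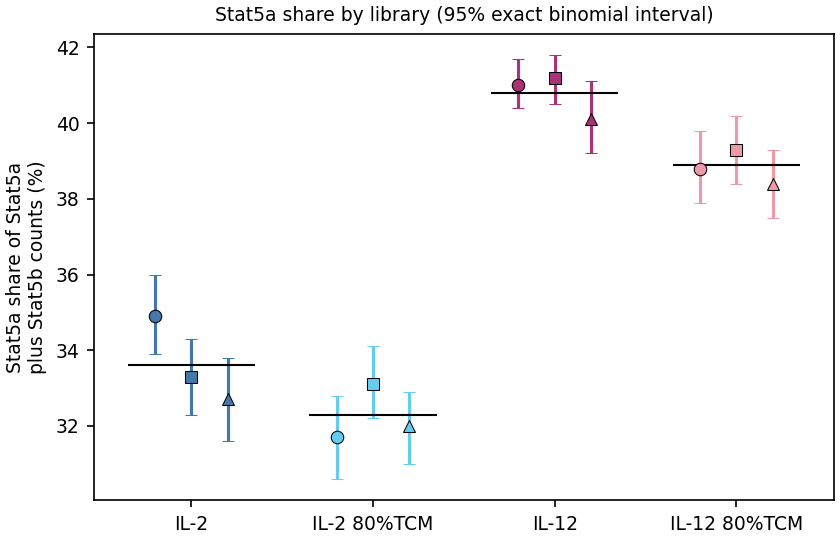
Stat5a share (%) of the counts of Stat5a plus Stat5b in each of the 12 libraries by group. Circles, squares and triangles are replicates 1, 2 and 3, error bars are 95% exact binomial intervals, and lines are group means; the vertical axis does not start at 0. The 6 IL-12 libraries lie between 38.4% and 41.2%, and the 6 IL-2 libraries between 31.7% and 34.9%.

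The STAT5 pair is close enough in sequence for some reads to be uncertain. Of all 50-base stretches of the annotated Stat5a transcripts (GENCODE M21), 8.21% also occur in Stat5b transcripts, and 11% of those of Stat5b occur in Stat5a. At 100 bases the shares are 3.44% and 4.79%. How such reads were assigned was not stated. Stat2, Stat3 and Stat6 have no 50-base stretch in common with another member. Stat3 and Stat5a overlap on opposite strands by 72 exon bases, 0.756% and 1.01% of their exons, and Stat6 overlaps Nab2 by 40 bases.

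Stat2, the interferon STAT that joins IRF9 in the ISGF3 complex, moved the opposite way without TCM. It was at 84.9, 98.8 and 114 CPM with IL-2 and at 62.7, 74.0 and 69.8 CPM with IL-12. All IL-12 libraries lay below all IL-2 libraries, with means of 68.9 ± 5.73 and 99.2 ± 14.6 CPM (1.44-fold lower, log2 fold change -0.53 ± 0.10, adjusted p = 0.00092). With TCM it was at 120, 113 and 135 CPM in IL-2 and at 97.3, 103 and 106 CPM in IL-12. These groups did not overlap either, but the difference was not called (log2 fold change -0.26 ± 0.10, adjusted p = 0.055). Leaving out both IL-2 replicates 3 gave a call (-0.20 ± 0.064, adjusted p = 0.0099), as did 16 of 23 alternatives in all (adjusted p = 0.0032 to 0.13 over the 23). Among them were the fits that leave out 1 of the IL-2 replicates 1, 2 and 3, replicate 2 of its TCM libraries or replicate 1 of IL-12 (0.017 to 0.049).

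Stat2 was also the member with the largest TCM effect. With IL-12 it rose with TCM from 68.9 ± 5.73 to 102 ± 4.56 CPM, 1.49-fold, with no overlap (log2 fold change 0.57 ± 0.10, adjusted p = 0.0012). With IL-2 its means were 99.2 ± 14.6 and 123 ± 11.4 CPM (log2 fold change 0.30 ± 0.10), and this was not called (adjusted p = 0.058): replicate 3 of IL-2, at 114 CPM, overlapped the TCM libraries. In each pair of equal replicate number the TCM library was higher, by 1.41-, 1.14- and 1.18-fold. Replicates 1 and 2 of the IL-2 groups were as close across numbers as within them, so these pairs may not be matched. A block on the replicate number, set up separately for each cytokine, gave a call (adjusted p = 0.00063), and so did leaving out both IL-2 replicates 3 (adjusted p = 0.00066), replicate 3 of IL-2 alone (0.0097), replicate 2 of its TCM libraries (0.04) or replicate 1 of IL-12 (0.047). In all, 13 of 24 alternatives called this effect in IL-2, among them DESeq2 (adjusted p = 0.022) and limma with 1 added (0.039). Over the 24 the adjusted p was 0.00063 to 0.17. The TCM effects in IL-12 and IL-2 differed by 0.27 ± 0.14 on the log2 scale, which was not called (adjusted p = 0.41, and 0.049 with the block set up separately for each cytokine).

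Stat3, the STAT of IL-6, IL-10 and IL-21, was the member that the libraries set apart touched most. It was at 271, 280 and 342 CPM with IL-2, at 329, 323 and 442 CPM with IL-2 and TCM, at 341, 326 and 324 CPM with IL-12, and at 414, 399 and 392 CPM with IL-12 and TCM. Replicate 3 lay 1.24-fold above the mean of replicates 1 and 2 in IL-2 and 1.35-fold above it in IL-2 with TCM, while in the IL-12 groups it lay at 0.973 and 0.963 of that mean. TCM libraries within IL-12 lay above all those without it, and within IL-2 only replicate 3 without TCM reached the TCM range. In every pair of equal number TCM was higher, by 1.16- to 1.29-fold in IL-2 and 1.21- to 1.22-fold in IL-12. Over all genes, deviations from the group mean were hardly correlated between equal numbers in IL-12 (r = 0.0721, 0.0055 and 0.00829). Pairs and a replicate block there rest on the numbering alone.

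In the edgeR test named above, on all 12 libraries, no Stat3 difference was called. The TCM effect was 0.29 ± 0.11 on the log2 scale in IL-2 (adjusted p = 0.09) and 0.28 ± 0.11 in IL-12 (adjusted p = 0.07). IL-12 against IL-2 gave 0.15 ± 0.11 without TCM and 0.14 ± 0.11 with TCM (adjusted p = 0.28 and 0.35). Without both IL-2 replicates 3 all 4 were called: 0.24 ± 0.047 (adjusted p = 0.00038), 0.27 ± 0.038 (1.6e-06), 0.25 ± 0.043 (1.9e-05) and 0.28 ± 0.043 (4.5e-06). The effect within IL-12 kept its size on the same 6 libraries while its standard error went from 0.11 to 0.038; the fit shares 1 estimate of the spread over all groups. With the replicate block within each cytokine both TCM effects were called (adjusted p = 0.00014 in IL-2 and 7.6e-05 in IL-12). On all 12 libraries DESeq2 called both as well (adjusted p = 0.04 in IL-2 and 0.043 in IL-12). So did edgeR with no filter (0.0004 and 0.0015) and with a replicate block over all libraries. With only the 2 groups compared the effect in IL-12 was called (2.2e-06) and that in IL-2 was not (0.27). The other scalings, the stricter filter and limma called neither. Leaving out 1 library also gave calls: the TCM effect in IL-2 without replicate 3 of IL-2 (0.02) or replicate 1 or 2 of its TCM libraries (0.049 and 0.041), that in IL-12 without replicate 3 of IL-2 (0.04) or of its TCM libraries (0.0048), and the cytokine difference with TCM without the latter (0.0066).

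Stat6, the STAT of IL-4, varied least. It was at 184, 181 and 170 CPM with IL-2, at 185, 188 and 202 CPM with IL-2 and TCM, at 173, 176 and 169 CPM with IL-12, and at 172, 158 and 166 CPM with IL-12 and TCM. The highest group mean was 1.16-fold the lowest. Among the TCM libraries it was lower in IL-12 than in IL-2 (165 ± 6.85 against 192 ± 9.25 CPM, log2 fold change -0.21 ± 0.053, adjusted p = 0.006), with no overlap, and this call held in all 23 alternatives (adjusted p = 0.00063 to 0.033). Without TCM the difference was -0.05 ± 0.053 (adjusted p = 0.46), and the TCM effects were 0.10 ± 0.053 in IL-2 (adjusted p = 0.23) and -0.06 ± 0.053 in IL-12 (adjusted p = 0.42).

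The TCM effects on the STAT5 genes were small. Stat5b was higher with TCM in IL-12, from 316 ± 4.68 to 358 ± 8.59 CPM, 1.14-fold and with no overlap (log2 fold change 0.18 ± 0.046, adjusted p = 0.0099). The adjusted p passed 0.05 when IL-12 replicate 1 or 2 was left out (0.083 and 0.064), when replicate 1 or 3 of the TCM libraries was (0.08 and 0.064), and with no filter on low counts (0.093). In IL-2 the Stat5b effect was 0.05 ± 0.046 (adjusted p = 0.49). Stat5a effects were -0.04 ± 0.061 in IL-2 and 0.07 ± 0.060 in IL-12 (adjusted p = 0.72 and 0.44), the latter without overlap of the libraries.

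**Figure D2:**
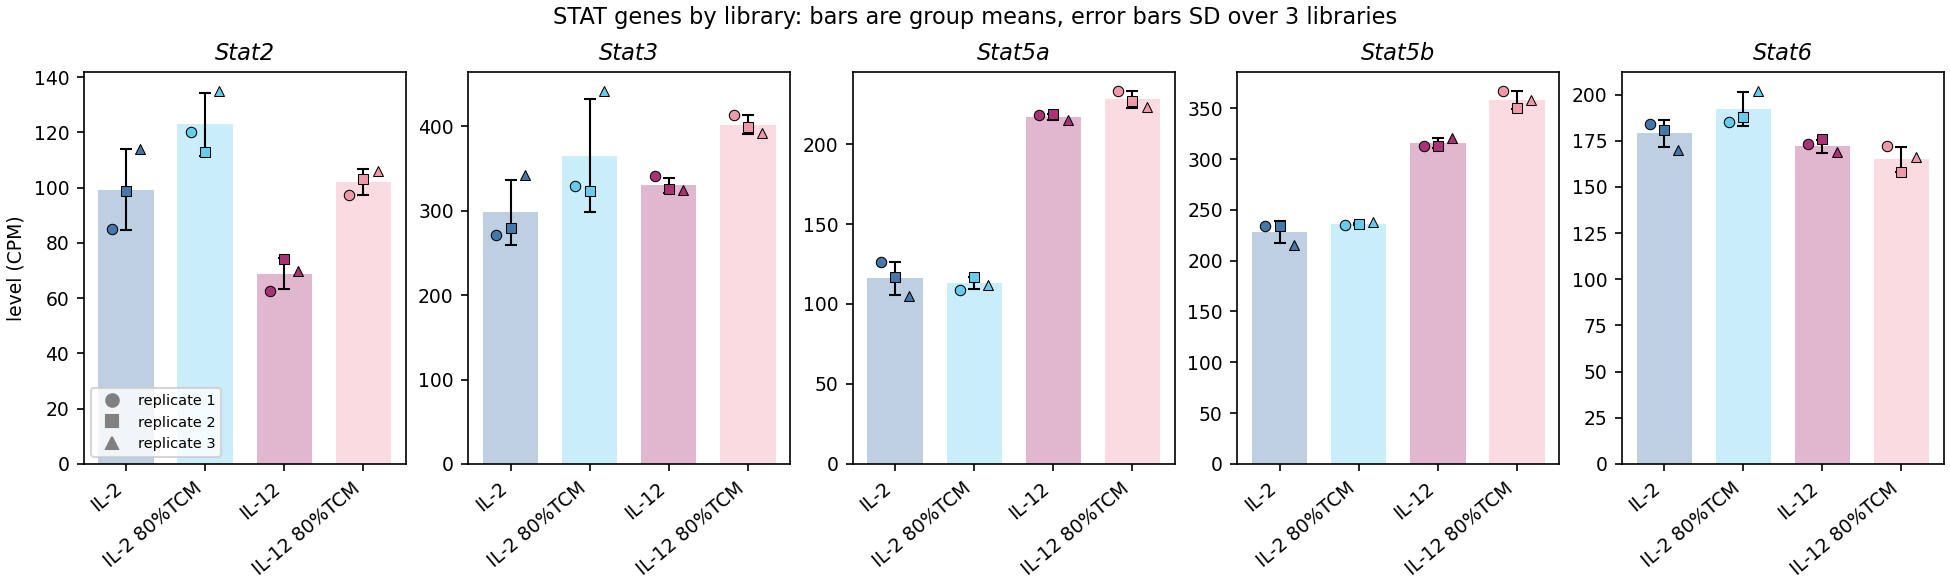
Level (CPM, from 0) of each STAT gene in each library. Bars are group means, error bars SD over 3 libraries, and circles, squares and triangles replicates 1, 2 and 3. Stat5a and Stat5b are higher in every IL-12 library than in every IL-2 library, Stat2 is lowest with IL-12 at 62.7 to 74.0 CPM, and for Stat3 replicate 3 lies highest in both IL-2 groups.

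Counted over the 5 genes, IL-12 against IL-2 without TCM gave 2 higher (Stat5a, Stat5b) and 1 lower (Stat2), where 45.1% of all genes tested were called; without both IL-2 replicates 3 it was 4, with Stat3 added, beside 52.3%. With TCM it gave 2 higher (Stat5a, Stat5b) and 1 lower (Stat6), where 39.0% were called, while DESeq2 and limma each called 4 of 5. Without both IL-2 replicates 3 all 5 were called, beside 48.0% of all genes. TCM in IL-12 gave 2 higher (Stat2, Stat5b) beside 29.0% of all genes, with 3 called by DESeq2 and 2 by limma. It gave 3 without those libraries beside 46.0%. TCM in IL-2 gave 0 of 5 beside 14.5%, with 2 of 5 at an unadjusted p under 0.05, 2 of 5 called by DESeq2, 1 by limma, and 2 (Stat2, Stat3) either with the replicate block within each cytokine, beside 27.0% of all genes, or without those libraries, beside 24.7%. For the difference of the TCM effect between cytokines, 0 of 5 were called by edgeR, DESeq2 and limma, beside 1.58% of all genes in edgeR (1.19% higher and 0.39% lower), and 1 of 5 had an unadjusted p under 0.05. With the block 1 was called (Stat2) beside 9.69%, and without those libraries 0 beside 13.2%. The counts rest on 5 genes and were read no further. The median log2 fold change of the members was 0.15 without TCM and 0.14 with TCM for the cytokines, 0.18 for TCM in IL-12 and 0.10 for TCM in IL-2, while the medians of all genes lay between -0.01 and 0.01. Each member median is the value of 1 gene, and both for the cytokines are the uncalled Stat3 differences. The median absolute log2 fold change of all genes was larger than each, at 0.30, 0.27, 0.22 and 0.17 in the same order.

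**Figure D3:**
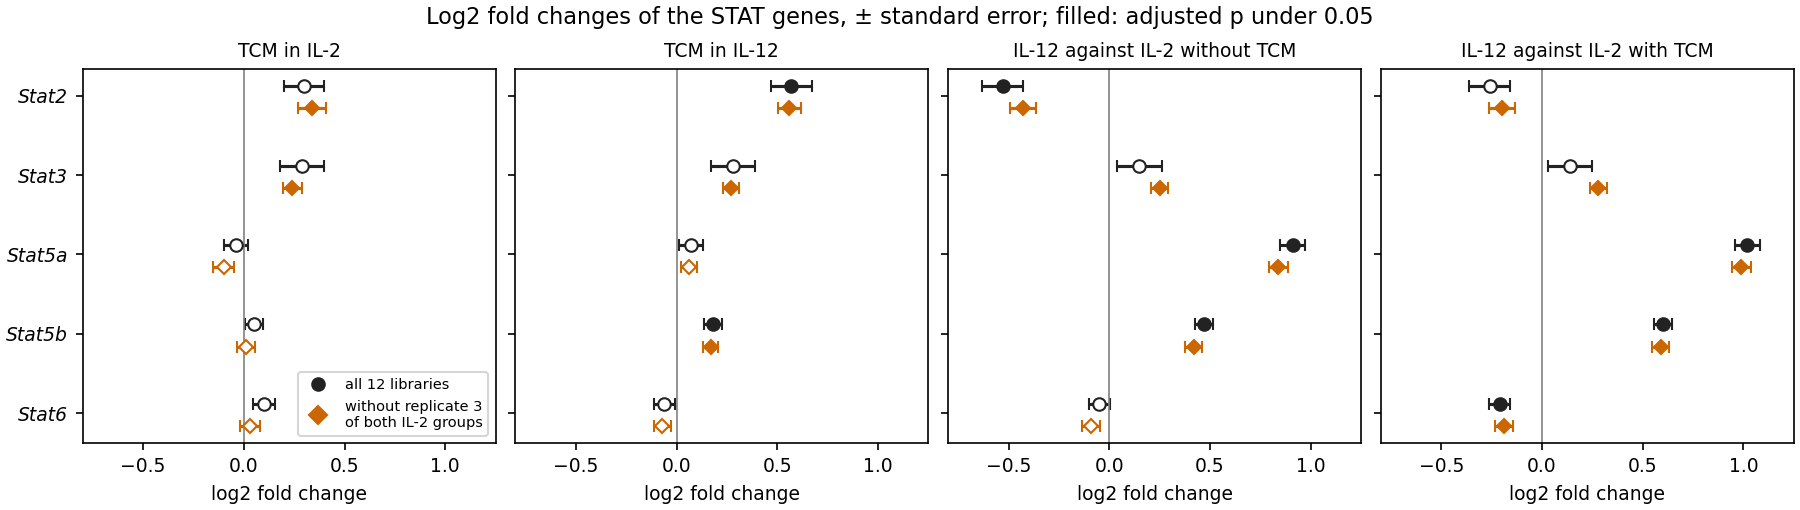
Log2 fold change of each STAT gene in 4 comparisons, with standard error bars. Circles are from all 12 libraries, diamonds from the 10 without both IL-2 replicates 3, and filled symbols have an adjusted p under 0.05. Stat5a lies farthest right for IL-12 against IL-2 (0.91 and 1.02), Stat2 lies left of 0 there and right of 0 for TCM, and Stat3 becomes filled in all 4 panels without those libraries.

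Each gene had its own order of groups. Stat5a and Stat5b were highest with IL-12 and TCM, then IL-12, then both IL-2 groups, and only the IL-2 groups of Stat5a overlapped. Stat2 was highest with IL-2 and TCM (123 CPM), then IL-12 with TCM and IL-2 (102 and 99.2 CPM, overlapping), and lowest with IL-12 (68.9 CPM). Neighbours in the order of Stat3 overlapped throughout, from 402 CPM with IL-12 and TCM to 298 CPM with IL-2. For Stat6 the order ran from IL-2 with TCM to IL-12 with TCM, with overlap except between the highest pair.

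Levels were compared between genes only per length, as CPM per 1000 bases of annotated exons (GENCODE M21, all transcripts joined). On that scale Stat5b (41.1 ± 1.92) and Stat6 (40.6 ± 1.62) were the highest members with IL-2, followed by Stat3 (31.2 ± 4.04), Stat2 (16.7 ± 2.47) and Stat5a (16.2 ± 1.47). Stat5b and Stat6 overlapped there, as did Stat2 and Stat5a. With IL-12 the order was Stat5b (57.0 ± 0.845), Stat6 (39.2 ± 0.81), Stat3 (34.7 ± 0.948), Stat5a (30.5 ± 0.285) and Stat2 (11.6 ± 0.967), with no overlap between neighbours. With TCM Stat3 (42.1 ± 1.22) stood above Stat6 (37.5 ± 1.56) in IL-12. Unused exons in the annotation would lower such a level, and transcripts were not measured one by one.

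Over the 12 libraries Stat5a and Stat5b followed each other most closely of the members (Pearson r = 0.97 of log2 CPM), while Stat2 ran against Stat5a (r = -0.61) and Stat6 against both STAT5 genes (r = -0.71 and -0.69). These values describe 4 groups rather than 12 independent points. Among 8529 genes of at least 10 CPM, those most like Stat5a were Heatr5a (r = 0.995), Ube2g2 and Uba1 (both 0.994), and those most like Stat5b were Treml2 (0.996), Ptpn2 and Csrnp1 (both 0.992). Treml2 stood at 136 ± 6.25, 145 ± 4.44, 308 ± 1.72 and 414 ± 6.71 CPM, the IL-2 groups first and each without TCM before with TCM. Grik5 (0.983), Polr3gl (0.978) and Pbxip1 (0.976) were most like Stat2. Arid3a (0.978), Actr10 (0.968) and Pja1 (0.967) were most like Stat3, and Pgm2 (0.951), Ccdc107 (0.917) and Idh3g (0.895) most like Stat6.

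The nearest tested genes on either side of the members, here said to be beside them, were looked at in the same comparisons. Genes that were not tested may lie between. Ghdc, beside Stat5b, was at 8.53 ± 1.87 CPM with IL-2 and 7.39 ± 0.824 CPM with IL-12 (adjusted p = 0.41), and Cavin1, beside Stat3, was 1.86 ± 1.21 and 0.479 ± 0.12 CPM (log2 fold change -1.87, adjusted p = 0.0099). Pan2, beside Stat2, was lower with IL-12 (77.6 ± 6.7 and 65.0 ± 6.13 CPM, adjusted p = 0.03) but had a TCM effect in IL-12 of -0.11 (adjusted p = 0.4), where Stat2 had 0.57. Nab2, beside Stat6, was lower with IL-12 both without and with TCM (log2 fold change -0.33 and -0.51, adjusted p = 0.018 and 0.0016). It was higher with TCM in IL-2 (0.37, adjusted p = 0.03), where Stat6 was not called. Apon, beside Stat2, and Lrp1, beside Stat6, were weakly expressed (0.372 ± 0.112 and 1.13 ± 0.792 CPM with IL-2) and called in no comparison.

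JAK kinases phosphorylate the STATs. With IL-12 against IL-2 without TCM 2 of the 4 were called, both lower, where 22.1% of all genes were called higher and 23.0% lower. Jak2 fell from 178 ± 10.2 to 131 ± 0.556 CPM and Tyk2, which pairs with JAK2 at the IL-12 receptor, from 117 ± 8.63 to 99.0 ± 2.39 CPM (adjusted p = 8.6e-06 and 0.012). Jak1 and Jak3, which serve the IL-2 receptor, were at 885 ± 42.2 and 834 ± 24.1 CPM and at 294 ± 84.1 and 247 ± 6.15 CPM (adjusted p = 0.19 and 0.31). The Jak1 difference was called without both IL-2 replicates 3 (log2 fold change -0.13, adjusted p = 0.014) and with upper-quartile scaling (-0.16, adjusted p = 0.02), and that of Jak3 with no filter (-0.22, adjusted p = 0.0072). Of all genes 29.0% were called for TCM in IL-12. There Jak1 fell from 834 ± 24.1 to 717 ± 16.1 CPM (adjusted p = 0.0071). Jak2 rose from 131 ± 0.556 to 144 ± 2.9 CPM (adjusted p = 0.041), a call lost on leaving out any 1 of 10 libraries, both IL-2 replicates 3 being the exceptions (adjusted p = 0.052 to 0.15), and with no filter (0.29). Jak3 was at 247 ± 6.15 CPM without and 360 ± 9.42 CPM with TCM in IL-12, with no overlap. It was not called (log2 fold change 0.54 ± 0.19, adjusted p = 0.053), nor was Tyk2 (0.16 ± 0.071, adjusted p = 0.12). Without both IL-2 replicates 3 all 4 kinases were called for TCM in IL-12, beside 46.0% of all genes.

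Receptor chains upstream of the members moved in both directions with IL-12 against IL-2 without TCM, where 22.1% of all genes were called higher and 23.0% lower. Both tested chains of the type I interferon receptor, which signals through STAT2, were lower: Ifnar1 fell from 258 ± 8.36 to 157 ± 4.45 CPM and Ifnar2 from 101 ± 1.47 to 50.1 ± 2.94 CPM (adjusted p = 1.4e-07 and 9e-08). Of 8 chains upstream of STAT5, 3 were higher and 3 lower. Il2ra, which raises the affinity of the receptor for IL-2, rose from 493 ± 24.8 to 1350 ± 50.8 CPM, and Csf2rb fell from 19.5 ± 6.4 to 6.82 ± 0.621 CPM. Of 7 chains upstream of STAT3, 2 were higher and 4 lower, with Il6st, the shared chain of IL-6 family receptors, from 130 ± 16.7 to 332 ± 11.7 CPM and Il6ra from 12 ± 4.22 to 3.18 ± 0.453 CPM. Il4ra, the tested chain upstream of STAT6, fell from 292 ± 23.5 to 113 ± 7.79 CPM (adjusted p = 4.4e-08), beside the Stat6 difference of -0.05.

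Target genes of the members, from lists of textbook targets that partly overlap, were counted in the same comparison. The lists were chosen with earlier results of these data known. Of all genes 22.1% were called higher and 23.0% lower. Of 17 tested STAT3 targets 12 were higher and 1 lower, with a median log2 fold change of 1.10. Il10, a cytokine gene, was at 0.789 ± 0.326 CPM with IL-2 and 49.0 ± 3.77 CPM with IL-12, and Fos, an AP-1 subunit, at 2.42 ± 1.01 and 12.5 ± 4.33 CPM (adjusted p = 9.2e-12 and 2.6e-05). Of 18 STAT5 targets 6 were higher and 8 lower (median -0.15), with the kinase genes Pim1 and Pim2 up from 123 ± 5.74 to 465 ± 24.0 CPM and from 227 ± 29.6 to 686 ± 23.1 CPM. Of 9 STAT6 targets 3 were higher and 5 lower (median -1.37), with Gata3 down from 57.1 ± 1.5 to 18.5 ± 0.527 CPM and Il1rl1, the IL-33 receptor, up from 5.39 ± 1.24 to 65.1 ± 1.73 CPM. Of the STAT6 targets called lower, Pparg, Il24 and Ccr8 (log2 fold change -2.85, -1.91 and -1.85) fell more than Gata3 (-1.62). They were too weakly expressed to be named, so the STAT6 median rests in part on weakly expressed genes. A stricter filter, a mean of at least 5 CPM, takes weaker genes out of the test. Under that filter 4 STAT6 targets were called in place of 8. For the cytokines with TCM it was 5 in place of 8.

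In the list of Irf9 and ISGF3 targets, 4 of 16 were higher and 9 lower with IL-12 without TCM (median -0.74), beside a Stat2 difference of -0.53. Over all genes 22.1% were called higher and 23.0% lower. The list was split: Usp18, which damps interferon receptor signalling, rose from 24.2 ± 2.88 to 199 ± 3.71 CPM and Ifi44 from 5.66 ± 1.36 to 45.9 ± 0.846 CPM, while Irf7 fell from 49.0 ± 2.14 to 17.4 ± 1.19 CPM. Of 19 JAK and STAT inhibitors, 7 were higher and 5 lower (median 0.06), with Socs3, which restrains STAT3 signalling, from 31.6 ± 1.63 to 81.0 ± 4.23 CPM. With TCM the IL-12 against IL-2 counts were 15 higher and 0 lower of 17 STAT3 targets, 7 and 5 of 18 STAT5 targets, 3 and 5 of 9 STAT6 targets, and 5 and 5 of 16 in the Irf9 and ISGF3 list, where 19.5% of all genes were called higher and 19.4% lower.

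For TCM in IL-12, where 14.8% of all genes were called higher and 14.2% lower, 11 of 18 STAT5 targets were higher and 1 lower (median 0.32), with Prf1, which encodes perforin, from 36.1 ± 1.97 to 102 ± 11.5 CPM and Tnfrsf4 from 10.3 ± 0.242 to 24.6 ± 1.89 CPM. STAT3 targets gave 6 higher and 0 lower of 17 (median 0.17), with Bcl3 and Tnfrsf8 at 1.75- and 2.56-fold. Of the Irf9 and ISGF3 list 3 were higher and 1 lower of 16 (median 0.18). Isg15 went from 6.19 ± 0.553 to 10.7 ± 1.22 CPM and Ifi44 from 45.9 ± 0.846 to 17.1 ± 1.77 CPM, while Stat2 rose 1.49-fold. The list had 9 called without both IL-2 replicates 3, beside 46.0% of all genes. It had 7 called with the replicate block within each cytokine, beside 40.4%. Of 9 STAT6 targets 3 were higher and 1 lower. Il4ra rose from 113 ± 7.79 to 213 ± 8.17 CPM, and Il1rl1 fell from 65.1 ± 1.73 to 41.6 ± 3.86 CPM. Of 19 JAK and STAT inhibitors 7 were higher and 1 lower with TCM in IL-12. In IL-2 5 were higher and 2 lower, where 6.73% of all genes were called higher and 7.82% lower. Ptpn6 was called lower with TCM in both (log2 fold change -0.49 in IL-12 and -0.52 in IL-2). Socs1, an inhibitor of JAK kinases, rose with TCM in both cytokines, from 44.0 to 49.4 CPM without TCM to 63.6 to 82.9 CPM with it in IL-12 and from 31.6 ± 3.16 to 48.3 ± 2.66 CPM in IL-2 (adjusted p = 0.00026 and 0.0015).

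**Figure D4:**
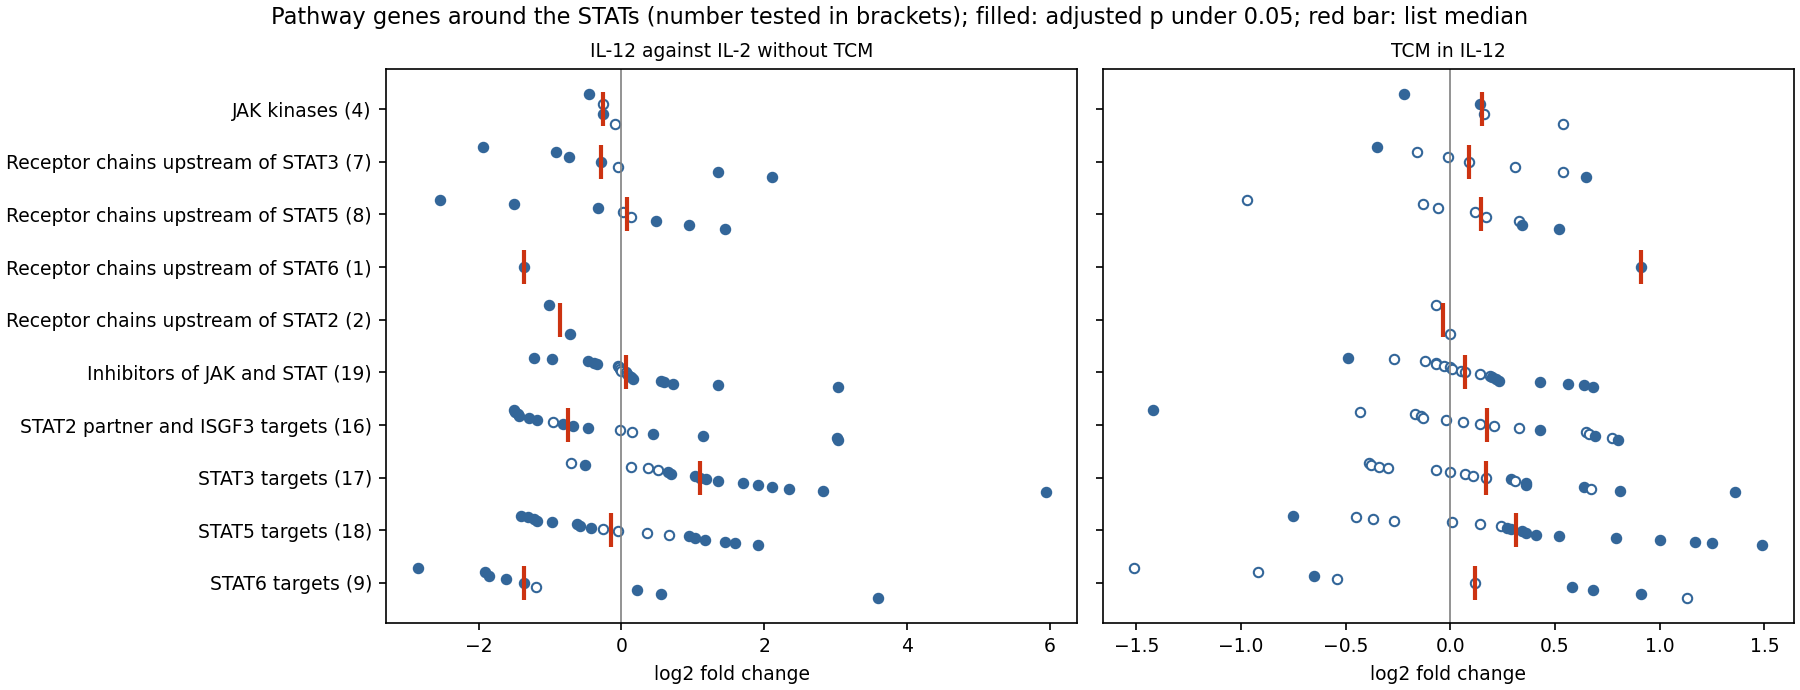
Log2 fold change of each tested gene in the JAK, receptor, inhibitor and target lists, for the cytokine difference without TCM (IL-12 minus IL-2) and for TCM in IL-12. Each circle is 1 gene, filled where the adjusted p is under 0.05, and red bars are list medians. For the cytokine, STAT3 targets lie mostly right of 0 (median 1.10), while STAT6 targets and the Irf9 and ISGF3 list have medians of -1.37 and -0.74. The STAT6 median rests in part on the weakly expressed Pparg, Il24 and Ccr8. A filter on a mean of at least 5 CPM takes weaker genes out of the test. Under that filter 4 STAT6 targets were called for the cytokine in place of 8.

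For TCM in IL-2, where 6.73% of all genes were called higher and 7.82% lower, 4 of 17 STAT3 targets were higher and 2 lower, 4 and 1 of 18 STAT5 targets, 4 and 2 of 9 STAT6 targets, and 1 and 2 of 16 in the Irf9 and ISGF3 list. The STAT5 targets called, 5 in all, were 9 without both IL-2 replicates 3, beside 24.7% of all genes. They were also 9 with the replicate block within each cytokine, beside 27.0%. They were 8 without replicate 3 of the TCM libraries, and 3 without replicate 1 or 2 of IL-2. The STAT6 targets called, 6 in all, were 3 to 5 on leaving out 1 library. The Irf9 and ISGF3 genes called, 3 in all, were 5 with that block, beside 27.0% of all genes. Bcl6, a transcriptional repressor, rose from 11 ± 1.05 to 21.7 ± 0.997 CPM, and Irf7 fell from 49.0 ± 2.14 to 32.1 ± 0.937 CPM (adjusted p = 1.9e-05 and 0.00015). Il4ra rose from 292 ± 23.5 to 388 ± 43.9 CPM (adjusted p = 0.0062; 0.073 with only the 2 groups compared), beside a Stat6 difference of 0.10.

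Markers of other cells moved with the groups. The summed level of 5 platelet markers was 111 to 132 CPM with IL-2, 47.6 to 59.5 with IL-2 and TCM, 60.8 to 71.9 with IL-12 and 27.7 to 34.5 with IL-12 and TCM. That of 7 myeloid markers was 9.38 to 18.1 CPM in the IL-2 groups and 6.36 to 11 CPM in the IL-12 groups. For 4 B cell markers it was 16.5 to 19.9 CPM in the IL-2 groups and 6.09 to 9.52 CPM in the IL-12 groups, and for 3 NK cell markers 0.805 to 2.58 and 0.123 to 0.649 CPM. The B cell and NK cell sums thus did not overlap between the cytokines, as was the case for Stat5a and Stat5b, and for Stat2 and Stat6 in the comparisons called above. For 5 erythroid markers the sum was 0.575 to 1.84 CPM over all libraries, and for 6 hepatocyte markers at most 0.132 CPM, with Ttr, Cyp3a11, Fgb and Serpina1a at 0 throughout. The summed level of 3 CD4 T cell markers was 2.82 to 3.33 CPM with IL-2 and 4.22 to 6.22 with TCM, and 1.43 to 1.82 CPM with IL-12 and 3.35 to 3.44 with TCM, a pattern across the groups that Stat2 also has. The platelet, B cell, NK cell and CD4 T cell markers were all detected in each group, S100a8 of the myeloid list was at 0 in 3 of the 4 groups and Hba-a2 of the erythroid list in both TCM groups, and 6 CD8 T cell markers summed to 3670 to 4370 CPM. The part of such cells in the differences of the STAT genes was not tested.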

How the data were processed

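Per the submitters' processing notes, reads were aligned with STAR 2.7.7a and edgeR was used in a role not stated; the notes name the build GRCh38 although the identifiers are of mouse genes. Per the labels' protocols a directional kit was used. The sources used here do not give the counter, its strand setting or its handling of shared reads. The deposited files were of these kinds: raw counts per gene for 12 libraries, and a deposited signal per gene, which stands in 1 fixed ratio to the counts within a library (CPM on TMM-scaled sizes).

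From the deposited counts, genes were filtered with filterByExpr (minimum count 10, minimum total 15), leaving 15897 of 55487, and scaled by TMM. A model with 1 mean per group over all 12 libraries was fitted in edgeR 4.0.16 (quasi-likelihood F test, Benjamini-Hochberg over all genes tested, threshold 0.05; common biological coefficient of variation 0.104). The standard error of a fold change is its size over the square root of F. Of the identifiers 55141 had a symbol in GENCODE M21. The fits were tested on simulated data.

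The members and gene lists were chosen with earlier results of these data known. Named genes are the 5 members, the JAK kinases and, from each list and comparison, the 2 called genes of at least 10 CPM with the largest change; some are not printed. 1 marker gene is not reported here, and its list was summed without it. Chromosome neighbours were the nearest tested genes in the RefSeq order, and the genes most alike were taken by correlation over the 12 libraries.

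Whether equal replicate numbers mark matched libraries was checked by correlating each library's deviations from its group mean. In the IL-2 groups the correlations were 0.28, 0.245 and 0.57 for equal numbers. Replicates 1 and 2 were as close across numbers (0.30 and 0.271), so that only replicate 3 stood out as closest to its own number. Between the other groups equal numbers gave -0.0443 to 0.0721. Pairs of equal number were thus not shown to be matched in IL-12, nor for replicates 1 and 2 in IL-2. Replicates differed by more than counting error in every group (chi-square per degree of freedom 2.40 to 45.4).

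Alternatives were DESeq2 size factors, upper-quartile scaling, no filter, a stricter filter (mean 5 CPM or more), the DESeq2 1.42.0 test, limma 3.58.1 on log2 of the deposited CPM plus 1, 0.1 or 5, only the 2 groups compared, a replicate block over all libraries or within each cytokine, each library left out, and replicate 3 of both IL-2 groups left out.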

Additional observations from a re-analysis of the deposited data

Results flagged for a closer look

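The difference of the TCM effect, IL-12 minus IL-2, was called for none of the 5 STAT genes in the fit of all libraries. Of all genes 1.58% were called there. The 5 other genes below were named by a rule that takes called genes, so their number is no result. Isg15, an interferon-induced gene, differed by 0.99 on the log2 scale (adjusted p = 0.028), being at 5.55 ± 0.682 and 4.84 ± 0.798 CPM without and with TCM in IL-2 and at 6.19 ± 0.553 and 10.7 ± 1.22 CPM in IL-12. Irf7 differed by 0.67 (adjusted p = 0.0057): it fell in IL-2 and was at 17.4 ± 1.19 and 18.1 ± 1.15 CPM in IL-12. Bcl6 rose in both, though in IL-12 the call was lost on leaving out IL-12 replicate 2 (0.051) or, among its TCM libraries, replicate 3 (0.07), and rose more in IL-2, with a difference of -0.68 (adjusted p = 0.0097). Bcl2, a survival gene, differed by 0.35 (adjusted p = 0.018), at 345 ± 7.61 and 325 ± 14.3 CPM in IL-2 and at 139 ± 3.62 and 168 ± 3.68 CPM in IL-12. Il21r, which signals through STAT3, differed by 0.45 (adjusted p = 0.043), at 154 ± 12.7 and 178 ± 15.9 CPM in IL-2 and at 127 ± 2.63 and 200 ± 6.23 CPM in IL-12. The calls of Irf7 and Bcl6 held in all 23 alternatives. Those of Bcl2, Il21r and Isg15 were lost in 10, 11 and 9 of the 12 fits that leave out 1 library (adjusted p up to 0.12, 0.14 and 0.095).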

How the results depend on the processing

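Of the 25 results on single STAT genes, the rise of Stat5a and Stat5b with IL-12, the fall of Stat2 with IL-12 without TCM, its rise with TCM in IL-12 and the Stat6 difference with TCM kept direction and call in every alternative run. The number of the 5 genes called for TCM in IL-2 was 0, and it was 1 with DESeq2 size factors, with upper-quartile scaling and in limma with 1, 0.1 or 5 added, 2 in DESeq2, with no filter, with either replicate block (over all libraries or within each cytokine) and without both IL-2 replicates 3, and 0 to 2 on leaving out 1 library. For TCM in IL-12 it was 2, and 1 to 3 on leaving out 1 library. It was 3 in DESeq2, with either replicate block, with only the 2 groups compared and without both IL-2 replicates 3. For IL-12 against IL-2 with TCM it was 3, and 5 without both IL-2 replicates 3. It was 4 in DESeq2 and in limma with 1 added, and Stat2 was called there in 16 of the 23 alternatives. For the difference of effects it was 0, and 1 with the replicate block within each cytokine.

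The Stat3 difference of effects (-0.01) was 0.02 and 0.01 without replicate 1 or 2 of IL-2, 0.13 without replicate 3 of IL-2 with TCM and 0.03 without both IL-2 replicates 3; over all single libraries left out it went from -0.13 to 0.13. The Stat5a effect of TCM in IL-2 (-0.04) was 0.04 without replicate 1 of IL-2 and -0.11 without replicate 3. Of 3 turned signs among other named genes, Jak3 with IL-12 against IL-2 (-0.25) was -0.37 to 0.00, the latter without replicate 3 of IL-2, and Irf7 with TCM in IL-12 (0.06) was -0.02 to 0.08 on leaving out 1 library, below 0 without replicate 1 on either side (-0.02 and -0.01). The cause was not tested. Without both IL-2 replicates 3, STAT3 targets called with IL-12 against IL-2 without TCM were 16 in place of 13. Of all genes 52.3% were called there in place of 45.1%. In the same fit STAT5 targets called for TCM in IL-12 were 16 in place of 12. Of all genes 46.0% were called for it in place of 29.0%. STAT6 targets called for the cytokines were 4 and 5 in place of 8 with a mean of at least 5 CPM. That filter takes weaker genes out of the test. With only the 2 groups, lists called for TCM in IL-2 were 2 (STAT5 targets), 1 (STAT6 targets) and 0 (Il4ra). Over all genes, the 2313 called for TCM in IL-2 were 587 with only the 2 groups, 4288 with the block within each cytokine, 1292 and 1432 without replicates 1 and 2 of IL-2 and 3936 without both IL-2 replicates 3. The 4617 for TCM in IL-12 were 7133 with only the 2 groups, 2931 without replicate 1 of IL-12, 3067 without replicate 3 of IL-12 with TCM and 7332 without both IL-2 replicates 3. The 251 for the difference of effects were 779 without a filter, 1541 with the block, 537 in DESeq2, 2105 without both IL-2 replicates 3 and 105 to 1164 on leaving out 1 library.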
